A study of Homo sapiens with 25 samples.

Results

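The ZIC genes ZIC1, ZIC2, ZIC4 and ZIC5 were followed through chromatin immunoprecipitation with sequencing (ChIP-seq) of 3 histone marks in a human pluripotent line and its endoderm derivatives. They were chosen by name from the 20037 protein-coding genes in the gene table. Peaks of each library within 1 kb of either annotated gene end, and within 100 kb of the gene, were then listed. The choice was made with earlier results on these peak lists known, ZIC2 losses among them, so the values below are a description and no test was run on them.

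All libraries came from the established embryonic line H1, either kept pluripotent (hESC) or differentiated. The differentiated stages, in order, were hDE, definitive endoderm, then hAFE, the anterior foregut stage, and last hPFE, endoderm of the pharyngeal foregut. No genotype, agent or day of differentiation is given in the labels used here. Each stage had 2 libraries of each mark, except that H3K27me3 in hAFE and H3K4me2 in hAFE and in hPFE had 1 each, which made 21 peak lists. The 4 inputs, 1 per stage, entered only as the authors' controls. The hESC libraries of H3K27ac and H3K27me3 were taken from an earlier deposit, so batch and stage cannot be told apart where those marks are set against hESC. The labels do not say whether replicates were separate cultures. Replicate 1 of H3K27me3 in hESC, hDE and hPFE has the word millipore in its file name, with no explanation, and both replicates gave the members the same H3K27me3 calls except at ZIC5 in hDE. Lists held 24871 to 111256 peaks for H3K27ac, 23457 to 76441 for H3K27me3 and 87357 to 116210 for H3K4me2. The read depth behind each list is unknown, so a missing peak means that none was called and does not show that the mark was absent.

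ZIC proteins are transcription factors with a domain of C2H2 zinc fingers related to that of the GLI and GLIS proteins, and they are best known for roles in the neural plate, neural crest and midline. ZIC2 is also expressed in pluripotent cells, where it binds enhancers. The genes followed here lie in head-to-head pairs. H3K27ac marks active promoters and enhancers, H3K27me3 is laid down by Polycomb repressive complexes over silent developmental genes, and H3K4me2 lies at active or accessible promoters and enhancers.

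In build GRCh38, ZIC2 lay on the plus strand at chr13:99981784-99986765 (4982 bp) and ZIC5 on the minus strand at chr13:99962964-99971909 (8946 bp), with 9874 bp between them. ZIC1 was on the plus strand at chr3:147409365-147416719 (7355 bp) and ZIC4 on the minus strand at chr3:147386046-147406543 (20498 bp), with 2821 bp between them. From the outer end of one gene to the outer end of its partner, the ZIC2-ZIC5 span was 23802 bp and the ZIC1-ZIC4 span 30674 bp. Below, marked means a peak in the gene-end windows in each library of the stage, unmarked a peak in none of them, and mixed a peak in some.

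The 250 bases before each gene's outermost start, 5′ to 3′ on the gene's own strand (RefSeq, GRCh38.p14), are shown because these promoters differ in their number of CG dinucleotides, which are in capitals. The windows are chr13:99981534-99981783 for ZIC2, chr13:99971910-99972159 for ZIC5, chr3:147409115-147409364 for ZIC1 and chr3:147406544-147406793 for ZIC4.
ZIC2: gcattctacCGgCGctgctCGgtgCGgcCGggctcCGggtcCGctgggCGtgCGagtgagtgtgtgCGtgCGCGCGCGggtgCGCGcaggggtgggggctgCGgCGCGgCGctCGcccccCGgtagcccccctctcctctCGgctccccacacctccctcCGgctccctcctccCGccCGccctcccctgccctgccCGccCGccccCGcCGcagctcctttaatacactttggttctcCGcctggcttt
ZIC5: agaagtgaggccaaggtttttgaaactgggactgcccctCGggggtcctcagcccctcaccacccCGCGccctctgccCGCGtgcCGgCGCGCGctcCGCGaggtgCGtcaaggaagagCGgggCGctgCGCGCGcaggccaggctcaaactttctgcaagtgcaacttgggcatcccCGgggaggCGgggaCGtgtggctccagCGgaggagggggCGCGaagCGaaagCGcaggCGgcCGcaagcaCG
ZIC1: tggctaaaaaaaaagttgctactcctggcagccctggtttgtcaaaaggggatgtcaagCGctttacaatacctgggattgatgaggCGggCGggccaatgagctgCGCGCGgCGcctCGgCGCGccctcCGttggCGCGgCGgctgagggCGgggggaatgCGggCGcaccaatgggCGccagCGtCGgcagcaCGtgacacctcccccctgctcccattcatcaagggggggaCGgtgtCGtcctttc
ZIC4: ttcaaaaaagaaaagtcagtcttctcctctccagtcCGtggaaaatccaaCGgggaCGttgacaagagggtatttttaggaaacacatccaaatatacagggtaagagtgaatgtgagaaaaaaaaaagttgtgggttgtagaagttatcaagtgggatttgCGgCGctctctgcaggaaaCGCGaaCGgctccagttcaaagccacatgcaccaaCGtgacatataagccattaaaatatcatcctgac

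ZIC2 held 31 CG dinucleotides in this window, ZIC5 28, ZIC1 23 and ZIC4 9, against a median of 11 over 35116 RefSeq promoters. The first 3 are CG-rich: 89.1%, 84.1% and 74.2% of promoters held fewer. ZIC4 starts inside the gene had 16 at chr3:147392382, 7 at chr3:147405520 and 2 at chr3:147404284. Both strands of the 250 bases were searched for short motifs. The GC box GGGCGG, found in 42.6% of promoters, occurred 4 times at ZIC2 and 2 times at ZIC1, where the CCAAT box (CCAAT, 32% of promoters) also occurred 2 times and the E-box CACGTG (6.34%) 1 time. These letters were not found in the ZIC5 and ZIC4 windows, nor in any of the 4 were the TATA box TATAAA (10.7%), the T-box site GGTGTGA (2.76%), the FOXA core TGTTTAC (2.98%) or the octamer ATGCAAAT (1.63%). Other RefSeq starts held some of these letters. The CCAAT box occurred 3 times at the ZIC5 start chr13:99971767 and 3 times at the ZIC4 start chr3:147405520, which also had 1 GC box. The FOXA core occurred 1 time at the ZIC4 start chr3:147404284. A match or its lack describes these letters alone.

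The ZIC2-ZIC5 pair carried H3K27ac in hESC and hDE and no H3K27ac peak in hAFE or hPFE, and H3K27me3 covered it in the later stages. The ZIC1-ZIC4 pair lay under H3K27me3 at all 4 stages, and its gene ends had no H3K27ac peak in any of the 8 lists. H3K4me2 covered less of both pairs from hESC to hDE and less again in hAFE and hPFE. The marked members were ZIC2 and ZIC5 for H3K27ac in hESC (2 of 4, where 42.9% of protein-coding genes were marked) and in hDE (2 of 4, where 54.0% were), and 0 of 4 in hAFE (34.2%) and in hPFE (50.2%). For H3K27me3 they were ZIC1 and ZIC4 in hESC (2 of 4, against 19.2% of all genes) and in hDE (2 of 4, 13.4%), with ZIC5 mixed in hDE. The H3K27ac shares in hESC and hDE are near those of all genes. In hAFE 4 of 4 carried H3K27me3 (15.5%), as did 4 of 4 in hPFE (12.7%).

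**Figure D1:**
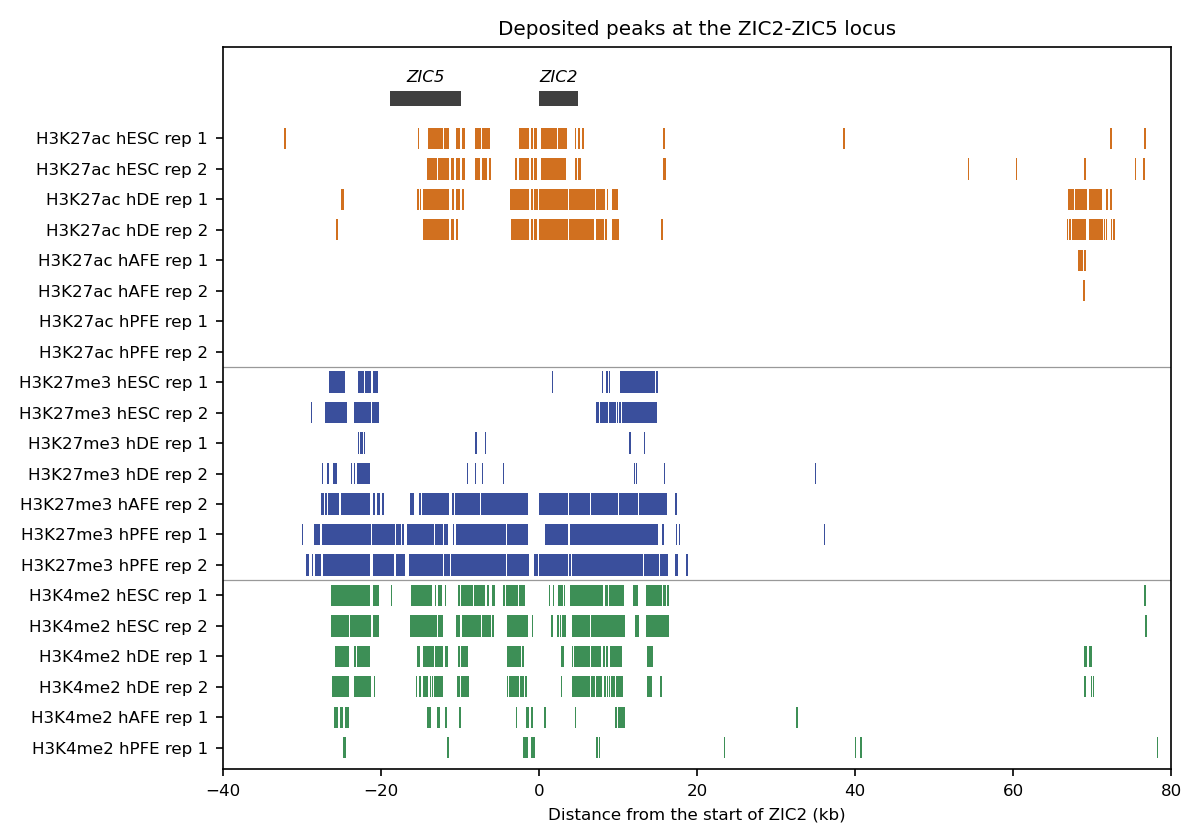
Peaks of each library (rows, grouped by mark and stage) along the ZIC2-ZIC5 locus, by distance in kb from the start of ZIC2, with the genes as dark bars. H3K27ac peaks lie over parts of both genes in the 4 hESC and hDE lists and over neither gene in the 4 later lists, and H3K27me3 peaks run across both genes in the 3 hAFE and hPFE lists.

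At ZIC2, the strongest H3K27ac peak at a gene end had a fold enrichment over input of 6.63 in hESC replicate 1 and 8.05 in replicate 2. In hDE the corresponding folds were 17.8 and 20.3. These folds are the authors' own for each list and are not comparable between lists. Within its list, the hDE replicate 1 peak (chr13:99981763-99985459) ranked 78 of 101186 peaks, and that of replicate 2 (chr13:99981828-99985444) ranked 105 of 111076. Those lists had median folds of 3.52 and 3.54. In hESC the ranks were 3310 of 75087 and 903 of 68306. ZIC2 thus stood near the top of both hDE lists. Ranks from lists of different length are not read as a change. H3K27ac peaks covered 68% and 67.4% of the ZIC2 gene in hESC, 96.7% and 95.7% in hDE, and 0 in each of the 4 later libraries.

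ZIC5, the partner gene, had weaker H3K27ac peaks at its ends. Their strongest folds were 5.48 and 6.9 in hESC, at ranks 6848 of 75087 and 2111 of 68306, and 6.3 and 8.83 in hDE, at ranks 14457 of 101186 and 8322 of 111076. Peaks covered 34.9% and 39.7% of the ZIC5 gene in hESC and 50.7% and 44.5% in hDE. A stronger hDE region lay inside the gene at chr13:99967089-99970410, 3322 bp wide, with folds of 9.76 and 14.1, away from both gene-end windows. It covered a RefSeq start of ZIC5 at chr13:99969172, whose 300-base promoter window (250 bases before the start to 50 after) lay wholly within H3K27ac peaks in the 4 hESC and hDE lists.

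The acetylation in hESC and hDE lay over parts of both genes and of the space between them, of which peaks covered 42% and 41.5% in hESC and 34.9% and 29.9% in hDE. Peaks joined across gaps of up to 1 kb gave a run around ZIC2 of 8.21 and 6.49 kb in hESC and of 13.8 and 13.6 kb in hDE. The hDE run reached chr13:99991855 and chr13:99991869, past the end of ZIC2. With gaps of up to 3 kb the longest runs were 9.14 and 19.5 kb in hESC and 13.8 and 13.6 kb in hDE, so which stage had the longer run depends on the gap allowed. Of the whole ZIC2-ZIC5 span, H3K27ac peaks covered 44.8% and 46.3% in hESC and 53.8% and 49.2% in hDE. No base was covered in hAFE or hPFE.

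Between hDE and hAFE, H3K27ac was lost at ZIC2 and ZIC5, 2 of the 2 members marked in hDE, where 12.5% of the 10824 genes marked in hDE were lost. The hAFE lists, of 42100 and 24871 peaks, were shorter than the other 6 of H3K27ac. With every H3K27ac list shortened to its 24871 strongest peaks, ZIC2 and ZIC5 stayed marked in hESC and hDE. Shortening only removes peaks, so it could not change an unmarked call. Whether the short hAFE lists account for the loss was not tested. The hPFE replicate 2 list was the longest of the mark, with 111256 peaks, and it too had 0 peaks in the ZIC2-ZIC5 span. Of 8180 genes marked by H3K27ac in both hESC and hDE, 90 (1.10%) had a gene-end peak in no library of hAFE or hPFE, and ZIC2 and ZIC5 were 2 of those.

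H3K27me3 at the ZIC2-ZIC5 pair was nearly absent from the early lists and broad in the later ones. It covered 0.668% and 0% of the span in hESC, 1.79% and 2.42% in hDE, 75.4% in the single hAFE library, and 82.7% and 90.3% in hPFE. Each hESC and hDE value was below the 3 later ones. How many other spans of the genome separate in this way was not counted. At ZIC2 no gene-end H3K27me3 peak was present in the 4 early lists. The hAFE peak over ZIC2 (chr13:99981819-99985482) had a fold of 15.2 and ranked 58 of 23457. In hPFE the strongest gene-end folds were 5.82 and 6.37, at ranks 1815 of 76441 and 2434 of 66283. The replicate 1 peak was 11213 bp wide, and its summit, at chr13:99996446, lay outside ZIC2 and its windows. The hAFE H3K27me3 peak began 56 bp from the start of the hDE replicate 1 H3K27ac peak and ended 23 bp from its end, so peaks of nearly the same extent lay over ZIC2 for one mark in hDE and for the other in hAFE.

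ZIC5 had a single short H3K27me3 peak before hAFE, of 119 bp and fold 3.21, in hDE replicate 2. Its summit was 802 bp before the ZIC5 start, just inside the 1 kb window. Later folds at ZIC5 were 8.45 in hAFE and 6.77 and 7.75 in hPFE, the last from a peak with its summit past the 3′ end of ZIC5. Joined across gaps of up to 1 kb, the longest run of H3K27me3 peaks was 17.4 kb in hAFE, over ZIC2 without ZIC5, and 27.1 kb in hPFE replicate 1, over ZIC5 without ZIC2. In hPFE replicate 2 a run of 47.1 kb held both genes. Gaps of up to 3 kb gave 33.7 kb in hAFE and 47.8 and 48.3 kb in hPFE.

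In hESC the acetylated ZIC2-ZIC5 pair already had H3K27me3 on both sides. The nearest peak beyond the 3′ end of ZIC5 lay 1.51 and 1.42 kb outside the span, with folds of 4.93 and 3.56. The nearest beyond the 3′ end of ZIC2 lay 2.99 and 2.3 kb outside, with folds of 4.79 and 3.36. Replicate 1 also had a 159 bp peak inside ZIC2. These peaks fall outside the 1 kb windows, and with windows of 2.5 kb all 4 members were marked by H3K27me3 in hESC. In hDE the nearest peaks were farther off, at 3.12 and 2.46 kb on the ZIC5 side and 6.37 and 7.07 kb on the ZIC2 side of the span. H3K27me3 in the 100 kb on either side covered 5.32% and 7.59% of bases in hESC, 1.15% and 2.79% in hDE, 10.5% in hAFE and 11.6% and 12.3% in hPFE. The flanks of the pair were thus lowest in both hDE lists.

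H3K27me3 was gained at ZIC2 between hDE and hAFE, while 2.74% of the 15847 genes unmarked in hDE were gained in that step. The hAFE call rests on 1 library, and the 2 hPFE libraries gave the same call. The change was not particular to ZIC2. Among 12 primitive streak and definitive endoderm genes, H3K27me3 marked 2 in hDE and 10 in hAFE. Of the 11 marked by H3K27ac in hDE, 9 lost it by hAFE. EOMES, GSC, MIXL1 and LHX1 made both changes, and unlike ZIC2 they had H3K27me3 and no H3K27ac call in hESC. Over all genes, 32 of 20037 (0.160%) had H3K27ac in hESC and hDE but in no hAFE or hPFE library, with H3K27me3 in hAFE and hPFE. ZIC2 and ZIC5 were both among them. With the added condition of no early H3K27me3 in any hESC or hDE library, 12 genes (0.0599%) remained, ZIC2 being a member and ZIC5 not. Those 12 also include FOXH1, the DNA-binding partner of SMADs in Nodal signalling, FUT2, a fucosyltransferase, and ADCY2, an adenylyl cyclase.

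The 300-base promoter windows show where in the pair the marks lay. At ZIC2, H3K27ac peaks covered 12.3% and 18.3% of that window in hESC and 63.7% and 19.7% in hDE. H3K27me3 covered 5% in hAFE and 0% and 48.3% in hPFE, while no H3K4me2 peak touched it in any of the 6 lists of that mark. At the outermost ZIC5 start, by contrast, H3K27me3 covered the window wholly in the 3 hAFE and hPFE lists and nowhere before. H3K4me2 there covered 55% and 49.7% in hESC, 51.3% and 56% in hDE, 9% in hAFE and 0% in hPFE.

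**Figure D2:**
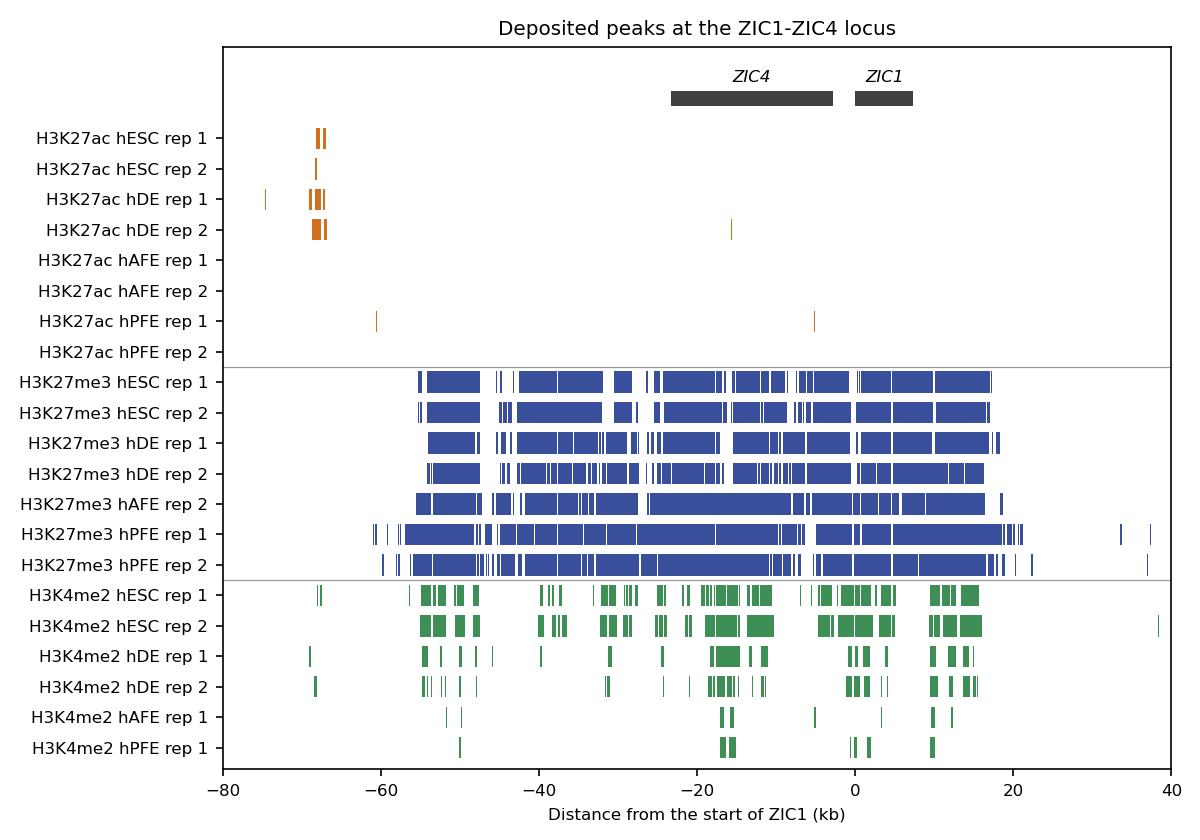
Peaks of each library along the ZIC1-ZIC4 locus, by distance in kb from the start of ZIC1, with rows and gene bars as in the ZIC2-ZIC5 map. H3K27me3 peaks run over both genes in all 7 lists. H3K27ac peaks appear about 45.4 kb beyond the 3′ end of ZIC4 in hESC and hDE, and H3K4me2 peaks are fewer in hAFE and hPFE.

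ZIC1 and ZIC4 lay in a broad H3K27me3 domain at each stage. It covered 85.1% and 89% of the ZIC1-ZIC4 span in hESC, 86.6% and 85.2% in hDE, 94.3% in hAFE, and 90.5% and 89.2% in hPFE. The longest runs joined over gaps of up to 1 kb measured 43.8 and 42.6 kb in hESC, 33.8 and 31.8 kb in hDE, 42.8 kb in hAFE and 51.4 and 49.5 kb in hPFE. These were not all over the same bases: the hDE runs began inside ZIC4, and the hPFE runs ended inside ZIC4 short of ZIC1. With gaps of up to 3 kb the runs lay between 70.4 kb and 82.3 kb, longer than the 30674 bp span. The protein-coding gene LOC124909494 (chr3:147362666-147370456), within 100 kb of ZIC4, carried H3K27me3 at all 4 stages.

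At ZIC1 the strongest gene-end H3K27me3 folds were 13.9 and 21.3 in hESC, 8.05 and 10.8 in hDE, 15.2 in hAFE and 9.07 and 9.87 in hPFE. Their ranks were 367 of 27958, 274 of 55027, 271 of 28200, 270 of 65995, 58 of 23457, 99 of 76441 and 315 of 66283, so ZIC1 stood near the top of each list. A peak counted here need only reach a gene-end window. In hPFE replicate 2 its summit, at chr3:147423066, lay past the end of ZIC1. ZIC4 had folds of 13.9 and 18.1, 8.05 and 10.8, 15.9, and 8.48 and 9.04 in the same order. The first of the hESC values and both hDE values belong to a peak that ZIC1 and ZIC4 share, such as chr3:147403297-147408736 in hDE replicate 1, since only 2821 bp separate the genes.

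H3K27me3 was kept at both genes in each step. From hESC to hDE 0 of 2 were lost, where 22.2% of the 3850 marked genes were lost, and the next steps lost 0 of 2 and 0 of 4, with 15.3% and 16.1% of marked genes lost. The call was the same in all 7 libraries.

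H3K27ac at the ZIC1-ZIC4 pair was limited to 2 short peaks inside ZIC4, outside the gene-end windows. These were 154 bp in hDE replicate 2 and 150 bp in hPFE replicate 1, each absent from the other replicate. By gene-end calls, 1167 of 20037 genes (5.82%) had H3K27me3 in every library of the 4 stages and H3K27ac in none. ZIC1 and ZIC4 were among these 1167. Of the 1167 genes, 802 (4.00% of all genes) also had H3K4me2 in every library, and neither ZIC1 nor ZIC4 was among these 802.

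**Figure D3:**
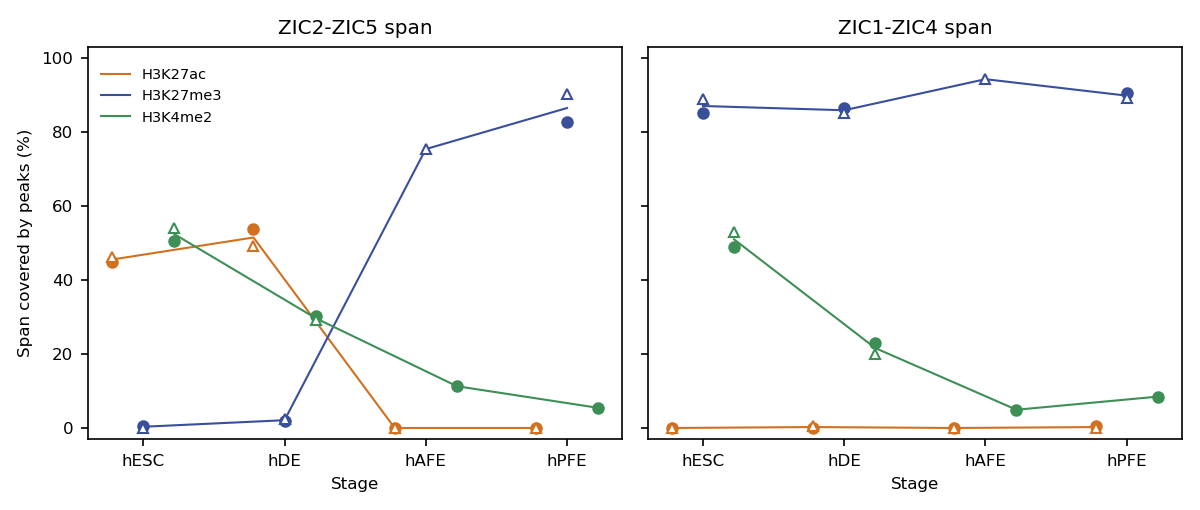
Share of each pair's span covered by peaks (%, vertical axis) by stage, with filled circles for replicate 1, open triangles for replicate 2 and lines through stage means. In the ZIC2-ZIC5 panel H3K27ac covers 53.8% and 49.2% in hDE and 0 in hAFE, where H3K27me3 covers 75.4%. In the ZIC1-ZIC4 panel H3K27me3 lies between 85.1% and 94.3%.

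H3K4me2 marked 4 of 4 members in hESC (72.3% of all genes) and in hDE (68.0%), and 2 of 4 in hAFE (ZIC2 and ZIC5, 70.2%) and in hPFE (ZIC1 and ZIC2, 70.1%). From hDE to hAFE 2 of 4 members, ZIC1 and ZIC4, lost the call, as did 3.23% of genes marked in hDE. From hAFE to hPFE ZIC1 gained it (11.7% of unmarked genes) and ZIC5 lost it (5.10% of marked genes), with 1 library on either side of that step. The ZIC4 call in hDE rested on peaks at its 3′ end with folds of 3.45 and 2.77. It ended at a −log10 p of 5, a −log10 q of 2, equal list lengths, a 500 bp window or a 200 bp overlap, which left 3 of 4 members marked in hDE and no loss at ZIC4. The ZIC2 calls in hESC and hDE depended on its 3′ end: with the 5′ end alone ZIC2 was not marked at either stage. As coverage, H3K4me2 differed more between stages. On the ZIC2-ZIC5 span it was 50.6% and 54.2% in hESC, 30.2% and 29.2% in hDE, 11.3% in hAFE and 5.45% in hPFE. On the ZIC1-ZIC4 span it was 49% and 53% in hESC, 23.1% and 20.1% in hDE, 4.93% in hAFE and 8.48% in hPFE. Both hESC values were above both hDE values in each pair, and the single hAFE and hPFE values were lower than either. The hAFE and hPFE lists held 98376 and 89059 H3K4me2 peaks, within the range of 87357 to 116210 over the mark. Over the whole genome the H3K4me2 lists covered 50.7 and 51 Mb in hESC, 37.3 and 34.6 Mb in hDE, 35.3 Mb in hAFE and 36.1 Mb in hPFE, so coverage was also lower across the list after hESC.

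At ZIC4 the H3K4me2 that remained lay inside the gene. The 300-base window of the internal start at chr3:147392382 was covered wholly in each of the 6 H3K4me2 lists. H3K27me3 covered that window to 53.7% and 66.3% in hESC, 0% and 31.3% in hDE, and wholly in hAFE and in both hPFE libraries. The window of the outermost ZIC4 start, the sequence above with the fewest CG dinucleotides, was wholly under H3K27me3 in all 7 lists, and H3K4me2 touched it only in hESC replicate 2, over 87.7%. At ZIC1, H3K27me3 peaks left the window of the CG-rich start free in hESC and hDE and covered 97.7% of it in hAFE and 76% and 81% in hPFE. H3K4me2 covered 57.7% and 68.3% of the ZIC1 window in hESC, 37.3% and 55.7% in hDE, none in hAFE and 49.7% in hPFE. With the gene-end windows widened to 2.5 kb, or with the whole gene counted, all 4 members were marked by H3K4me2 in hAFE and in hPFE.

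Outside the genes, the strongest H3K27ac signal near either pair was a distal site after ZIC2, at chr13:100048777-100053136, 4360 bp wide and 62 kb beyond the pair. Its bounds join 2 regions of the hDE H3K27ac lists, so its high hDE coverage follows in part from how it was drawn. In hDE its strongest peak had folds of 19 and 19.7, at ranks 43 of 101186 and 140 of 111076, and peaks covered 88.1% and 89.5% of it. In replicate 1 it ranked above the peak over ZIC2 itself, and in replicate 2 below it. Other stages had little there. In hESC a peak of 209 bp appeared in replicate 2 and none in replicate 1, hAFE had 842 and 246 bp with folds of 3.78 and 2.44, and hPFE had none. H3K4me2 was found on the site in both hDE lists alone, with folds of 7.69 and 6.6. No H3K27me3 peak touched it in any of the 7 lists. Peaks and distance do not say which gene, if any, the site acts on.

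A weaker site lay beyond the 3′ end of ZIC4, at chr3:147340638-147342641, with its far edge 45.4 kb from the gene. Its bounds were again drawn from hDE peaks. Its H3K27ac folds were 4.18 and 4.86 in hESC and 5.51 and 5.88 in hDE, and hAFE and hPFE had no peak there. It was free of H3K27me3 peaks in the 7 lists. Counting H3K27ac regions present in both libraries within 100 kb, the ZIC2-ZIC5 pair had 13 in hESC and 15 in hDE, then 1 in hAFE and 0 in hPFE, and the ZIC1-ZIC4 pair had 1, 2, 0 and 0. The single hAFE region, 271 bp wide, lay within the distal site after ZIC2. It was lost at a −log10 p of 5 or more and with lists of equal length.

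CLYBL, a mitochondrial enzyme gene at chr13:99606690-99909444, has only its end at chr13:99909444 within 100 kb of ZIC5. By its calls, which count both ends, CLYBL did not follow the ZIC2-ZIC5 pair. It carried H3K27ac in hESC and hDE, was mixed in hAFE and hPFE, kept H3K4me2 at all 4 stages and had H3K27me3 at none. Within 1 kb of the near end, H3K27ac had a peak only in hDE replicate 2 and H3K4me2 in no list. The H3K4me2 calls, and H3K27ac in every other list that had it, came from the far end, outside the 100 kb. The spread of H3K27me3 over the pair did not extend to the gene ends of CLYBL. Inside CLYBL, away from its ends, an H3K27me3 peak was present in all 7 lists. In hDE replicate 1 it lay at -86.913 to -85.842 kb from the start of ZIC2.

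The genes most like each member were ranked by the mean difference, over the 21 libraries, in the percentile that the strongest gene-end peak held within its list. These rankings use the values that define the pattern and carry no test. For ZIC1 the nearest were HOXC5 (1.46 percentile points), HOXC6 (1.47), OTP (2.69), POU4F1 (2.87) and COL9A2 (2.92), of which the first 4 encode homeodomain factors and the last a collagen chain. For ZIC4 they were LHX3 (1.53), UNCX (1.96), SCRG1 (2.87), HOXC11 (3.22) and FLI1 (3.59). For ZIC2 they included FOXH1 (3.73), ANK2 (4.43), GPR176 (5.78) and FUT2 (7.44), and for ZIC5 they were PAPLN (7.14), FOXH1 (10.2), GPR176 (10.5), ANK2 (10.7) and ADCY2 (10.7). FOXH1, ANK2 and GPR176 were near to both members of the ZIC2-ZIC5 pair by this measure. When genes were ranked instead by the number of libraries with a differing call, ANK2 and GPR176 were no longer among the nearest. That ranking kept 4 of the 5 genes named for ZIC1, 1 of 5 for ZIC4, 2 of 4 for ZIC2 and 3 of 5 for ZIC5. Many genes were tied in it: 42 had the same calls as ZIC1 in all 21 libraries, 44 the same as ZIC4 and 11 the same as ZIC2. Which of the tied genes counted as nearest depends on how ties were ordered, so the overlap is no separate check.

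Partners resembled each other more than members of the other pair did. ZIC2 ranked 2 among the genes nearest to ZIC5, and ZIC5 ranked 11 for ZIC2, with a mean difference of 9.84 points. ZIC1 and ZIC4 differed by 12.2 points, with ZIC1 at rank 341 for ZIC4 and ZIC4 at rank 968 for ZIC1. Between the pairs the differences ran from 42.6 to 53.1 points. ZIC1 and ZIC4 share their strongest peak in some lists, so part of their likeness is one measurement counted for both genes.

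**Figure D4:**
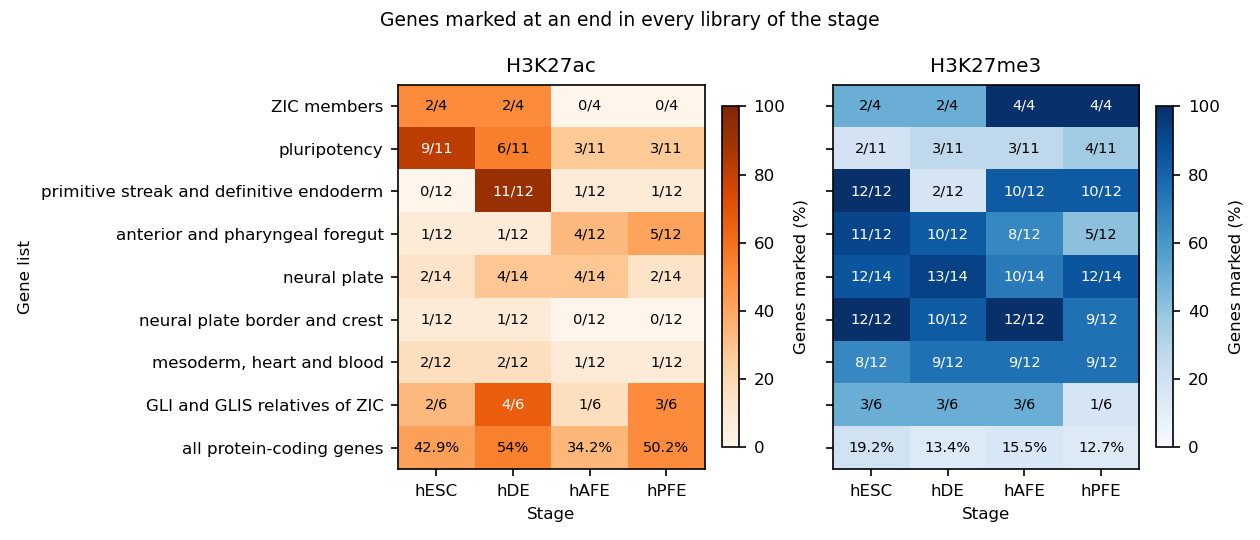
Share of genes (%, colour) marked at a gene end in every library of the stage, for H3K27ac (left) and H3K27me3 (right), by gene list (rows) and stage (columns), with the counts in each cell and the share of all protein-coding genes in the last row. The ZIC row goes from 2/4 to 0/4 for H3K27ac and from 2/4 to 4/4 for H3K27me3, and the definitive endoderm row peaks for H3K27ac in hDE with 11/12.

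The labelled stages were set against marker lists by the same calls. Pluripotency genes carried H3K27ac at 9 of 11 in hESC, 6 in hDE and 3 in each of hAFE and hPFE. POU5F1 lost it by hDE, while PRDM14 kept it to hDE and carried H3K27me3 from hDE onwards. NANOG carried H3K27ac in hESC, hDE and again in hPFE, with none in hAFE, so not every pluripotency marker stayed without it. Primitive streak and definitive endoderm genes carried H3K27ac at 0 of 12 in hESC, 11 in hDE and 1 in each later stage. H3K27me3 marked 12, 2, 10 and 10 of these 12 genes from hESC to hPFE. Of anterior and pharyngeal foregut genes, 1, 1, 4 and 5 of 12 carried H3K27ac in the order of the stages. SOX2 and ISL1 were marked in hAFE and hPFE, and FOXE1 and SHH in hPFE. TBX1 had no H3K27ac at its gene ends in any library, and PAX1 and PAX9 were mixed in hPFE, so the pharyngeal label was met by part of its markers.

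ZIC genes are neural plate and neural crest factors, and the genes of those tissues serve as context. Among 14 neural plate genes, 2, 4, 4 and 2 carried H3K27ac and 12, 13, 10 and 12 carried H3K27me3 from hESC to hPFE. HESX1, a forebrain and pituitary homeobox gene, was acetylated at all 4 stages. Of 12 border and crest genes, 1, 1, 0 and 0 carried H3K27ac and 12, 10, 12 and 9 carried H3K27me3. For H3K27ac and H3K27me3, ZIC1 and ZIC4 had the calls most of these genes had, and ZIC2 and ZIC5 did not in hESC and hDE. H3K4me2 differed: in hAFE and in hPFE it marked 13 of the 14 neural plate genes and 8 of the 12 border and crest genes. ZIC1 and ZIC4 were unmarked by it in hAFE, and ZIC4 also in hPFE. Of 12 mesoderm, heart and blood genes, 2, 2, 1 and 1 carried H3K27ac and 8, 9, 9 and 9 carried H3K27me3. SOX2, OTX2 and FOXD3 stand in more than 1 list.

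The GLI and GLIS genes, the closest zinc finger relatives of ZIC, had no common course. H3K27ac was found at 2, 4, 1 and 3 of the 6 genes and H3K27me3 at 3, 3, 3 and 1, from hESC to hPFE. GLI1 and GLI2, effectors of Hedgehog signalling, were acetylated in hESC, hDE and hPFE and mixed in hAFE. GLIS3 gained H3K27ac in hDE and lost it between hAFE and hPFE, with H3K27me3 in hESC alone. GLI3 had no peak of any mark at its gene ends in any library, and GLIS1 carried H3K27me3 at the 4 stages without H3K27ac.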

How the data were processed

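Peak lists of 21 ChIP-seq libraries were used, and the 4 inputs were not analysed here on their own. Per the deposited file names, the authors made each list from alignments that were sorted and freed of duplicates, with the stage's input as control, a p-value limit of 0.01 and at most 500 K peaks. The submitters' processing notes name hg38 as the build. The aligner and caller were not given in the sources used here. The authors' deposited columns are an integer score, which was not used, the fold enrichment (ratio of ChIP over input), and significance as −log10 p and −log10 q. Fold enrichment ranked and described peaks inside a list, the significance columns filtered them, and no value was set against another list's.

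Overlapping peaks of a library were merged with Python 3.11.15, numpy 2.4.6 and pandas 2.3.3, and figures were drawn with matplotlib 3.10.9. Genes came from the RefSeq table of GRCh38.p14, and strands, starts and promoter sequences from its promoter table, where all 4 members matched. A call needed at least 1 bp of a peak within 1 kb of a gene end. The call step was checked on simulated peaks. The members and gene lists were chosen with earlier results of these data known. Besides the members, the text names protein-coding genes within 100 kb, the 5 genes nearest to each member by percentile, and genes of each list. The planned limit was 4 genes of a list, and the GLI and GLIS list goes beyond it. Further foregut markers were named for the check of the stage labels after their values were seen. Some genes picked by these rules are not reported here. Alternatives covered peak thresholds, list length, window size, overlap and left-out libraries.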

Additional observations from a re-analysis of the deposited data

How the results depend on the processing

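No paired analysis was possible because no result comes from a test, and replicate numbers shared by groups are not said to mark a shared culture. H3K27ac gains and losses of the members were the same under every setting run. Some settings could only remove calls: stricter −log10 p (5) or −log10 q (2), lists of equal length and windows of 500 bp. The same holds for the 5′ end alone and an overlap of 200 bp, so none of these could change an unmarked call. The other settings were windows of 2.5 kb, the whole gene and each library left out. Windows of 2.5 kb raised the members marked by H3K27me3 in hESC to 4, and those marked by H3K4me2 in hAFE and hPFE to 4 each, as did the whole gene for H3K4me2. Windows around every RefSeq start, chosen after seeing the data, also gave 4 for H3K4me2 in hPFE. With the 5′ end alone, H3K4me2 marked 3 members in hESC (ZIC1, ZIC4 and ZIC5) and 2 in hDE (ZIC1 and ZIC5). H3K27ac regions within 100 kb of ZIC2-ZIC5 in hAFE went from 1 to 0 at a −log10 p of 5, with equal lengths and within 50 kb, and those of ZIC1-ZIC4 in hDE from 2 to 1 with equal lengths. With a library left out, the regions of the other were counted, which raises counts by construction. They were 25 to 29 in hESC, 22 to 24 in hDE, 1 to 2 in hAFE and 1 to 3 in hPFE for ZIC2-ZIC5, and 2 to 4, 4 to 5, 0 and 0 to 3 for ZIC1-ZIC4. Read depth is unknown, and the hAFE call of H3K27me3 and the hAFE and hPFE calls of H3K4me2 rest on 1 library each.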
